A study of Mus musculus with 16 samples.

Results

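Mitochondrial ribosomal proteins are the nuclear-encoded proteins of the mitochondrial ribosome, the machine that translates the few proteins encoded by mitochondrial DNA. Members were taken by name alone, as every gene of the deposited count table whose mouse symbol is Mrpl or Mrps followed by a number and at most 1 letter. The rule gave 78 genes of the 22468 in the table, 49 named Mrpl and 29 named Mrps, and all 78 passed the filter on low counts that left 13412 genes for testing. They lie on 17 chromosomes. The measurements come from ventricles of neonatal mice and form 4 groups of 4 samples. The groups were wild-type (WT) mice after sham surgery, WT mice after myocardial infarction (MI) made by tying off a coronary artery, mice of a Chrna7 knockout (KO) line after sham surgery (KO sham) and mice of that line after MI (KO MI). Chrna7 encodes the alpha 7 nicotinic acetylcholine receptor subunit, and the knockout is a Jackson Laboratory line whose allele is inherited, so it is carried by every tissue and not only by heart muscle. Tissue from above and below the ligature was homogenised together, poly(A) RNA was sequenced, and exact age, sex, litter and time after surgery were not given in the sources used here.

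A mitochondrial ribosome has a small subunit, which reads the messenger RNA, and a large subunit, which forms the peptide bonds. Many of its proteins descend from those of a bacterial ribosome, and others were gained by mitochondria during evolution. Its products are core subunits of the respiratory chain and ATP synthase, on which beating heart muscle depends. By textbook assignment 51 members belong to the large subunit, 30 with a bacterial counterpart and 21 without, and 26 belong to the small subunit, 16 with a bacterial counterpart and 10 without. Mrps30 and Mrps18a carry small-subunit names but sit in the large subunit and are counted there. The remaining member, Mrps36, is named as a ribosomal protein but is a component of the oxoglutarate dehydrogenase complex.

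Libraries held 10711442 to 17223580 counts assigned to genes. Chrna7 had 0 to 4 reads in every library, 7 in WT and 14 in KO in all, so its level did not check the genotype labels. Cardiomyocyte markers were abundant in every library, with 10 genes summing to 61252 to 105555 CPM (read counts normalised to library size, with edgeR's TMM factors). KO MI replicate 4 stood apart from the rest of its group. Its cardiomyocyte markers summed to 61252 CPM against 82205 to 89213 in the other KO MI libraries, and 17.3% of its counts came from mitochondrially encoded genes against 9.79 to 10.6%. Markers of lung epithelium summed to 334 CPM in it against 44.8 to 61.7 CPM. The WT libraries differed among themselves too. In WT sham replicate 2 the lung markers summed to 3.20 CPM against 60.9 to 93.4 CPM in the rest of its group. In WT MI replicate 2 they summed to 3.88 CPM against 67.8 to 168 CPM. Mitochondrially encoded genes took 13.4 and 12.8% of counts in these 2 libraries, against 9.51 to 9.80% and 10.2 to 11.1% in the rest of their groups. WT sham replicate 1, KO sham replicate 2 and KO MI replicate 1 held 1.73 to 2.74 CPM from 4 Y-linked genes, against 152 to 231 CPM in the other 13 libraries. The labels do not say whether samples came from separate animals, so p-values measure only the spread between these samples.

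Promoters of these genes are known for binding sites of ETS-family factors and of nuclear respiratory factor 1 (NRF1). RefSeq windows on GRCm38.p6, running from 250 bases before to 50 bases after each start, were present for 69 members (75 windows). The letters CCGGAAG, an ETS-type site searched on both strands, occurred in 34.7% of the member windows and in 8.86% of all 32851 windows of that length. The NRF1 consensus, with any letter allowed in its middle, occurred in 17.3% against 4.60%, and the YY1-type letters AANATGGCG in 14.7% against 2.38%. The E-box CACGTG was found in 9.33% against 7.15%, the oestrogen-related receptor letters AAGGTCA in 5.33% against 4.72%, the Sp1-type letters GGGCGG in 52% against 35.7%, and CCAAT in 40% against 37.4%. These matches describe letters and not occupied sites, and some members have more than 1 window. The 250 bases before the start of Mrpl34 (chr8:71464676-71464925, plus strand) and Mrpl52 (chr14:54426659-54426908, plus strand) are shown because their levels passed the test between KO sham and WT sham whichever library was left out. Capitals mark the ETS-type letters, on the plus strand from position -37 relative to the Mrpl34 start and on the minus strand, as CTTCCGG, from position -47 relative to the Mrpl52 start.
Mrpl34: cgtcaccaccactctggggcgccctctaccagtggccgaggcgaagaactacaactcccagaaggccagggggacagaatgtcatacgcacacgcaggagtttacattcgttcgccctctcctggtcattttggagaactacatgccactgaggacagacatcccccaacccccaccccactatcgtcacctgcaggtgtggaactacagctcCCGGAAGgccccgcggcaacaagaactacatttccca
Mrpl52: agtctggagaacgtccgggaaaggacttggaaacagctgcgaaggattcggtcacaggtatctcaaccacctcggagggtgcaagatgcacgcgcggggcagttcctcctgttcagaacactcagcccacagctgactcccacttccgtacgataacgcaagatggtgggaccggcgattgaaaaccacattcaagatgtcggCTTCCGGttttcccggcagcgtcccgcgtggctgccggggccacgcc
Both are among the 26 members with the ETS-type letters. Of the 11 members with a window that passed the test in KO sham against WT sham, 4 held the ETS-type letters, 2 the NRF1-type and 0 the YY1-type letters. Among the 58 other members with a window these counts were 22, 11 and 11.

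Every member was expressed in every library, at 94 to 4685 counts per gene and library. Mean levels ran from 10.1 to 263 CPM, and together the members took 0.458 to 0.548% of all gene counts. Levels per kilobase of transcript, the scale on which genes can be compared, had a median of 41.1 CPM per kb. In the large subunit, Mrpl42 was the most abundant member of mitochondrial origin at 398 CPM per kb, and Mrpl30 that with a bacterial counterpart at 175 CPM per kb. In the small subunit the highest were Mrps21 at 202 and Mrps34 at 111 CPM per kb. The lowest of these classes were Mrpl50 at 14.9, Mrpl19 at 5.84, Mrps6 at 11.9 and Mrps25 at 5.79 CPM per kb. The 3 Mrps18 paralogs, of which Mrps18a is the large-subunit copy, were present together, at 111 CPM per kb for Mrps18a, 66.7 for Mrps18c and 27.2 for Mrps18b. Lengths were medians over annotated transcripts and not those of the transcripts expressed here. Mrps25 and Mrpl19, the lowest per kb, also had the longest annotated transcripts, at 6073 and 5000 bases. Subunits of 1 particle therefore differed widely in transcript level, in CPM as well, while each gene's own level moved little. The highest group mean of a member exceeded its lowest by a median of 1.16 times, from 1.01 times for Mrpl47 to 1.53 times for Mrpl52. Replicates of a group varied with a median coefficient of variation of 8.10%.

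The group with the lowest mean was KO sham for 54 of the 78 members, WT MI for 9, WT sham for 8 and KO MI for 7. No such count over all genes was set beside it, and differences from KO sham ran with transcript length, as described after the comparisons. Summed over members, WT sham libraries held 4918, 5269, 5552 and 5537 CPM (5319 ± 297, mean ± SD). WT MI libraries held 5257, 5577, 5046 and 4900 CPM (5195 ± 294), and KO sham libraries 4886, 4855, 4972 and 4573 CPM (4821 ± 173). KO MI libraries held 5029, 5030, 5175 and 5593 CPM (5207 ± 267). KO sham was the lowest of the groups, its values overlapped those of WT sham and WT MI at their lower ends, and they lay entirely below those of KO MI. KO MI replicate 4, the library described above, had the highest sum of all 16.

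**Figure D1:**
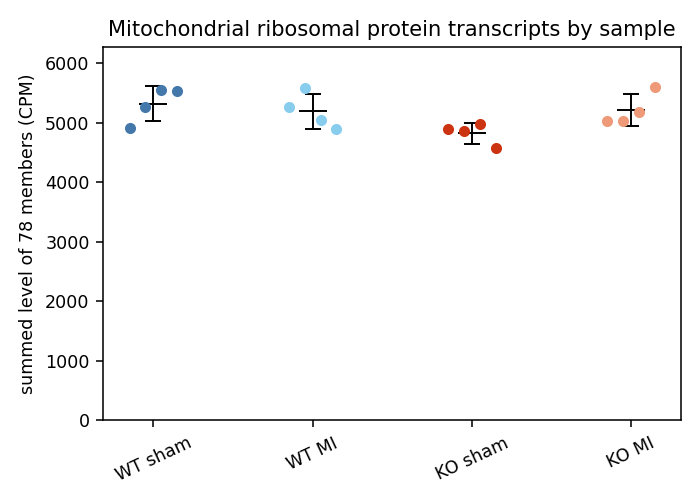
Summed level of the 78 members (CPM) in each sample, with the group mean and SD as bars and 4 samples per group. KO sham samples lie between 4573 and 4972 CPM, and the highest KO MI point, at 5593 CPM, is replicate 4.

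Between KO sham and WT sham, the comparison of the genotypes without an infarct, part of the mitochondrial ribosomal protein transcripts were lower in KO sham. The cause of this difference was not tested. A total of 12 of 78 members (15.4%) were called lower at an adjusted p under 0.05 by edgeR's quasi-likelihood test with Benjamini-Hochberg adjustment over all genes, and 0 were called higher. Over all genes tested, 7.74% were called lower, 7.60% higher and 15.3% in either direction. The median log2 difference of members was -0.16, against -0.01 over all genes, and it became -0.05 once length and GC effects were removed, as described after the comparisons. The difference was negative for 65 members (83.3%), against 50.9% of all genes. All 4 KO sham values lay below all 4 WT sham values for 18 members (23.1% against 12.3% of all genes), and above them for 0 (14% of all genes). At an unadjusted p under 0.05, 27 of the 78 members differed, all lower, and 4236 of the 13412 genes tested differed in either direction.

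The members called lower included 4 of the large-subunit proteins with no bacterial counterpart. Mrpl52 read 44.8, 44.7, 63.8 and 84.4 CPM in WT sham and 38.9, 37.8, 39.5 and 39.1 CPM in KO sham. Its 4 KO sham values lay close together and below every WT sham value, while WT sham replicates 3 and 4 were well above the other two. The difference was -0.61 ± 0.15 (log2, ± SE; adjusted p = 0.0094), or 1.53-fold lower, and it was -0.39 without WT sham replicate 4, the smallest of the 8 values with a library left out. Mrpl54 read 55, 61.9, 67.6 and 82.2 CPM in WT sham and 52.3, 45, 50.3 and 45.9 CPM in KO sham, again without overlap. It was 1.38-fold lower (-0.46 ± 0.11, adjusted p = 0.00752). Mrpl46 read 41.8, 47.1, 45.4 and 48.5 CPM in WT sham and 36.2, 31.5, 40.5 and 37.1 CPM in KO sham (-0.33 ± 0.09, adjusted p = 0.0175), and the call was lost without KO sham replicate 2. Mrpl46 is transcribed head to head with Mrps11, and the annotated genes overlap on opposite strands. Mrps11, a small-subunit protein, also had groups without overlap, at 36.5, 37.5, 39.6 and 40.2 CPM and 32.5, 34.4, 33 and 27.4 CPM, with -0.27 ± 0.10 (adjusted p = 0.0627). Mrpl45, which holds the mitochondrial ribosome to the inner membrane, read 57.5, 73.8, 63.7 and 51.6 CPM and 44.9, 48, 53 and 49.2 CPM. It was called (-0.34 ± 0.11, adjusted p = 0.0364) although WT sham replicate 4 lay inside the KO sham range.

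Another 4 called members were large-subunit proteins with a bacterial counterpart. Mrpl34 read 65.6, 68.6, 67.2 and 76.9 CPM in WT sham and 55.1, 55.3, 55.9 and 53.6 CPM in KO sham, groups that did not overlap. Its KO sham values were the tightest of any group of this gene, at 55 ± 0.991 CPM against 69.6 ± 5 CPM. The difference was 1.27-fold (-0.34 ± 0.08, adjusted p = 0.00746). Mrpl11, whose bacterial counterpart lies at the base of the stalk that receives translation factors, read 60.2, 63.5, 71.3 and 65.3 CPM and 58.2, 53.7, 53.1 and 49.6 CPM. It was called at -0.28 ± 0.08 (adjusted p = 0.0223). Mrpl21 read 49.5, 52.5, 49.2 and 56.7 CPM and 44.4, 40.7, 48.1 and 39.1 CPM, without overlap (-0.27 ± 0.08, adjusted p = 0.0352). Mrpl28 read 66.8, 91.7, 88.4 and 89.4 CPM and 63.8, 74.2, 66.7 and 58 CPM (-0.36 ± 0.11, adjusted p = 0.0299). Its WT sham replicate 1 fell among the KO sham values. Mrpl12, the stalk protein itself, missed the threshold at 175, 244, 241 and 253 CPM and 172, 178, 196 and 178 CPM (-0.34 ± 0.11, adjusted p = 0.0507).

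The small subunit gave the other 4 calls, all proteins with a bacterial counterpart. Mrps16 read 45.6, 44.7, 60.8 and 56 CPM in WT sham and 40.5, 39.99, 41.2 and 39.1 CPM in KO sham (-0.36 ± 0.10, adjusted p = 0.0205). The groups did not overlap, and the KO sham values again lay close together. Mrps7 read 78.6, 87.5, 88.3 and 81.7 CPM and 67.9, 70.4, 69.9 and 72.5 CPM (-0.26 ± 0.09, adjusted p = 0.0447). Mrps9 read 86.4, 99.2, 101 and 90.5 CPM and 85.7, 77.5, 80.6 and 79.1 CPM (-0.22 ± 0.07, adjusted p = 0.0481). Mrps17 read 36, 43.8, 40.4 and 43.5 CPM and 30.7, 32.8, 35.6 and 34.5 CPM (-0.29 ± 0.10, adjusted p = 0.0491). These last 3 had no overlap between the groups but sat near the threshold, and each kept its call in 1 of 8 fits with a library left out. By class, 4 of 16 small-subunit members with a bacterial counterpart were called lower (median log2 difference -0.22) and 0 of 10 without one (-0.17). In the large subunit 4 of 30 members with a bacterial counterpart (-0.13) and 4 of 21 without one (-0.16) were called lower. Mrps36, the dehydrogenase component, was at -0.11 ± 0.08 (adjusted p = 0.389). The largest positive value belonged to Mrpl14, at 68, 58.3, 70.8 and 76.9 CPM and 80.6, 85.9, 78.5 and 67.2 CPM (0.19 ± 0.10, adjusted p = 0.198).

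**Figure D2:**
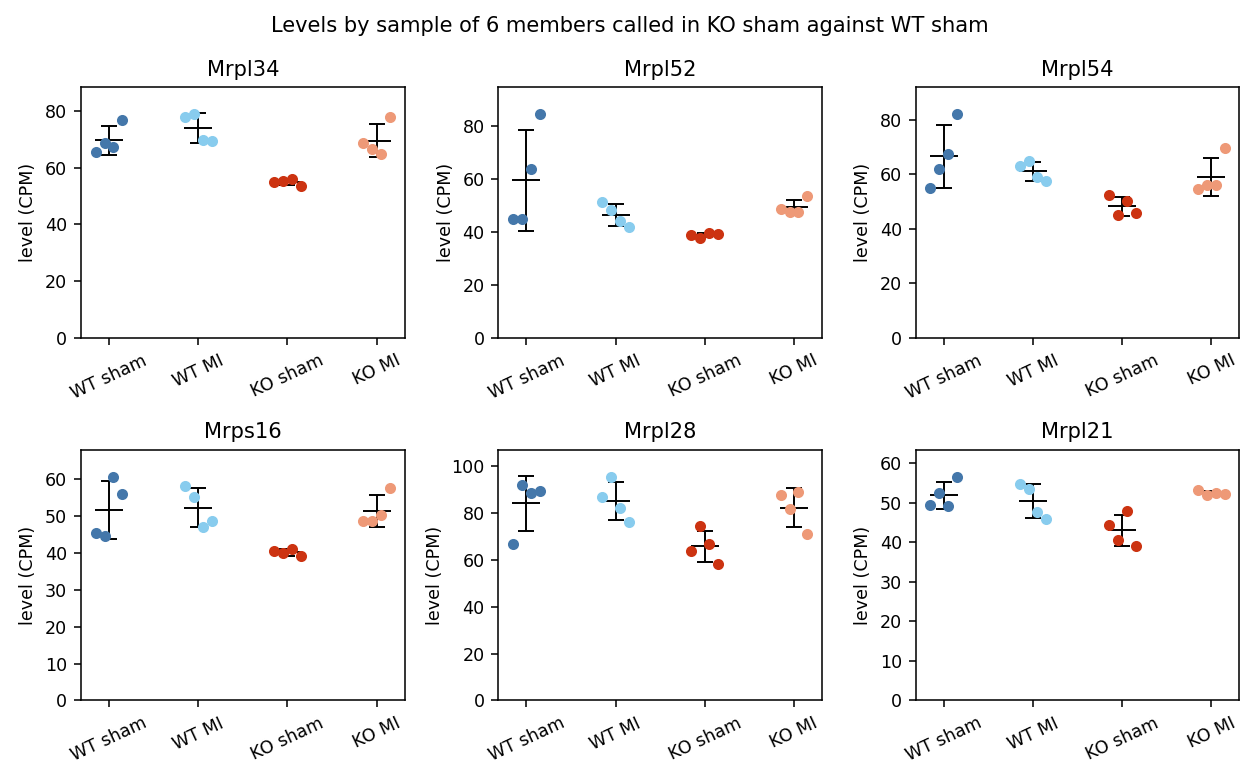
Level (CPM) by sample of 6 members called between KO sham and WT sham, with the group mean and SD as bars and 4 samples per group. KO sham values lie below all WT sham values for Mrpl34, Mrpl52, Mrpl54, Mrps16 and Mrpl21, while for Mrpl28 1 WT sham value of 66.8 CPM lies among them.

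The number of members called depended on single libraries. It was 20 without WT sham replicate 1, and 7, 5 and 6 without WT sham replicates 2, 3 and 4. Without KO sham replicates 1 to 4 in turn it was 6, 4, 7 and 4. The share of all genes called ran from 9.59 to 15.4% over these 8 fits. Mrpl34, Mrpl52 and Mrpl54 were called in all 8 of these fits, and the median of members stayed between -0.19 and -0.13. Of the 16 members called in this comparison or in KO MI against KO sham, Mrpl21, Mrpl46, Mrps7, Mrps18a and Mrps25 overlap a gene on the opposite strand. Whether the counting used strand is not given in the sources used here, so reads of such pairs cannot be told apart. Mrps6 overlaps Slc5a3 and Gm49711 on the same strand.

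Other cell types moved in the same comparison, and in whole tissue fewer cells of a type and less RNA per cell cannot be told apart. All 7 tested red-cell markers were called lower in KO sham, at a summed 991 to 1407 CPM against 2966 to 4731 CPM in WT sham. All 7 epicardial markers were called lower, at 27.7 to 34.7 CPM against 90.6 to 136 CPM. Endothelial markers were called higher for 2 of 7, at a summed 1668 to 1766 CPM against 1412 to 1582 CPM. For cardiomyocyte markers 0 of 10 were called, with sums of 88465 to 91070 CPM against 92925 to 105555 CPM. Of 8 fibroblast markers 1 was called higher and 1 lower, at 6341 to 6691 CPM against 6437 to 7392 CPM. No marker of these lists was at 0 in all libraries. Their part in the members' lower level was not tested.

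Within KO mice the infarct was compared with sham surgery, and part of the members were higher after MI. Of 78 members, 8 (10.3%) were called higher and 0 lower, where 8.54% of all genes were called higher and 8.02% lower (16.6% in all). The share called higher was thus near that of all genes, while the sign of the differences leaned further. The difference was positive for 63 members (80.8%), against 51.2% of all genes, with a median of 0.12 against 0.01, which became -0.04 with the length and GC correction. All KO MI values lay above all KO sham values for 21 members (26.9% against 11.4% of all genes) and below them for 1, Mrpl44 (1.28% against 12.5%). Both this comparison and the one above use the KO sham libraries, so a low KO sham value enters both.

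Mrpl34 was the member with the smallest adjusted p. It rose from 55.1, 55.3, 55.9 and 53.6 CPM in KO sham to 68.6, 66.6, 64.8 and 78 CPM in KO MI, without overlap (0.34 ± 0.08, adjusted p = 0.00771). Its KO MI mean of 69.5 ± 5.86 CPM differed from the WT sham mean given above by less than 1 SD. Mrps16 rose from 40.5, 39.99, 41.2 and 39.1 CPM to 48.8, 48.6, 50.3 and 57.8 CPM (0.35 ± 0.10, adjusted p = 0.0218). Mrpl21 rose from 44.4, 40.7, 48.1 and 39.1 CPM to 53.3, 52.1, 52.6 and 52.3 CPM (0.29 ± 0.08, adjusted p = 0.0237). Its 4 KO MI values lay in a narrow range above all KO sham values. Mrpl28 rose from 63.8, 74.2, 66.7 and 58 CPM to 87.7, 81.5, 88.8 and 70.8 CPM, with overlap (0.32 ± 0.11, adjusted p = 0.0434). These 4 members are the ones called in both comparisons.

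The other 4 called members did not pass the test in KO sham against WT sham. Mrpl17, with a bacterial counterpart in the large subunit, read 41, 43.1, 42 and 40.1 CPM in KO sham and 48.6, 51.4, 52.6 and 51 CPM in KO MI (0.29 ± 0.08, adjusted p = 0.0222). Mrps18a read 71.8, 71.6, 78.8 and 65.5 CPM and 85.4, 96.8, 80.8 and 94.7 CPM (0.31 ± 0.09, adjusted p = 0.0183). Neither gene's groups overlapped. Mrps6, the member with the lowest mean level in CPM, read 8.20, 7.06, 9.34 and 7.54 CPM and 11.6, 11.4, 10.04 and 9.26 CPM, with a slight overlap (0.39 ± 0.13, adjusted p = 0.0376). Its difference was the largest of the members in this comparison. Mrps25 read 31.3, 32.4, 31.2 and 28.9 CPM and 36.2, 38.9, 37.7 and 40.2 CPM (0.31 ± 0.10, adjusted p = 0.0484), without overlap, but lost its call in each of the 8 fits with a library left out. By class, the medians were 0.13 and 0.14 for large-subunit members with and without a bacterial counterpart (4 of 30 and 1 of 21 called higher). They were 0.10 for both small-subunit classes (2 of 16 and 1 of 10).

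**Figure D3:**
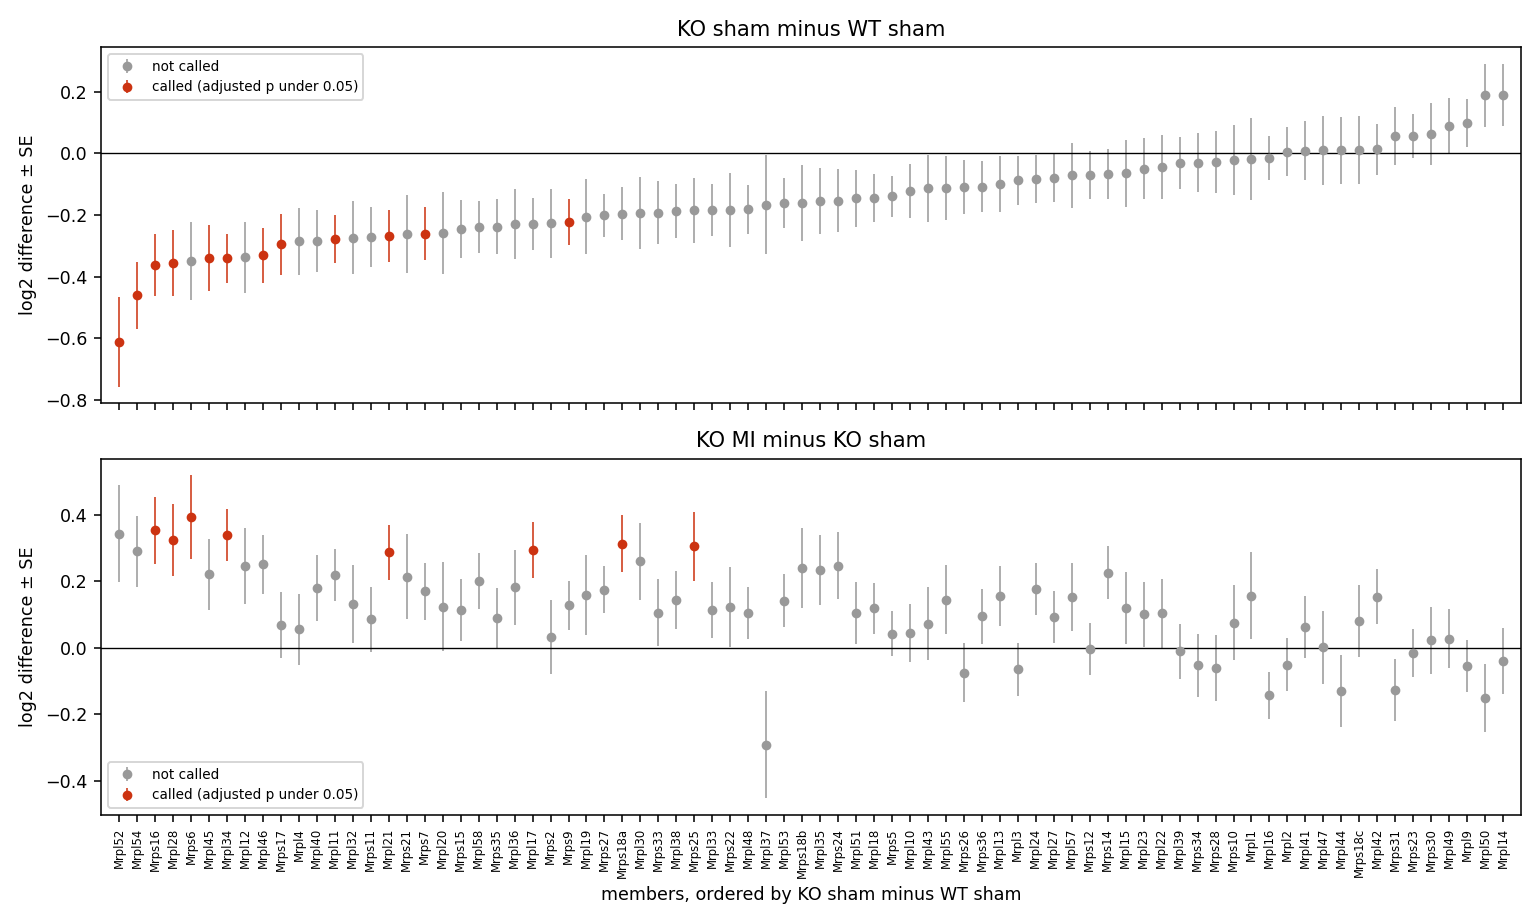
Log2 difference ± SE of each of the 78 members in KO sham minus WT sham (top) and KO MI minus KO sham (bottom), ordered by the top panel, with called members in red. The top panel holds 65 members below 0 and the bottom panel 63 above 0, and the panels share the KO sham samples.

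Single libraries decided most of these calls as well. Without KO sham replicates 1 to 4 in turn 3, 4, 7 and 1 members were called higher, and without KO MI replicates 1 to 4 in turn 5, 2, 3 and 7. Over these 8 fits 9.1 to 21.7% of all genes were called in either direction. Only Mrpl34 was called in all 8 of these fits. Without KO MI replicate 4, the library that stood apart, the members' median fell to 0.07, Mrpl34 was at 0.27, and Mrpl50 was called lower (-0.26 ± 0.09, adjusted p = 0.0458). Epicardial markers moved in the same comparison, 7 of 7 called higher (summed 47.1 to 122 CPM in KO MI). Leukocyte markers were called higher for 4 of 8, at a summed 102 to 213 CPM against 75.7 to 84.2 CPM in KO sham, and cardiomyocyte markers were called lower for 4 of 10, at 61252 to 89213 CPM against 88465 to 91070 CPM. Of the red-cell markers 3 of 7 were called higher, at 1124 to 1859 CPM. Their part in the members' rise was not tested.

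In WT mice MI and sham did not differ detectably for these genes. With edgeR 0 of 78 members were called, where 2.25% of all genes were (1.32% higher and 0.932% lower), and DESeq2 and limma also called 0. At an unadjusted p under 0.05, 3 members differed, 1 higher and 2 lower, where 2007 of the 13412 genes tested differed. The median difference was -0.03, with 29 members above 0 (37.2% against 47.7% of all genes), and the groups overlapped for all 78, where 4.5% of all genes lay wholly higher and 3.71% wholly lower. The largest positive difference was that of Mrpl49, at 26.9, 24.3, 32.4 and 27.9 CPM in WT sham and 33.8, 31.7, 31.2 and 33 CPM in WT MI (0.22 ± 0.09, adjusted p = 0.247). The most negative was that of Mrpl52, at 51.2, 48.2, 44 and 41.9 CPM in WT MI (-0.35 ± 0.15, adjusted p = 0.249). For Mrpl52 the 2 high WT sham libraries noted above lay beyond all WT MI values.

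After MI the genotypes also showed no called member. In KO MI against WT MI edgeR, DESeq2 and limma called 0 of 78, where edgeR called 0.0149% of all genes. An unadjusted p under 0.05 was reached by 5 members and by 638 of the 13412 genes tested. The median difference was 0.00 with 37 members above 0, and the medians of the 4 ribosomal classes lay between -0.04 and 0.01. Without KO MI replicate 4 the median was -0.04 and 0 were called. Values did not overlap for Mrpl17, Mrpl27, Mrpl57 and Mrps18c, which were higher in KO MI (5.13% of members against 1.09% of all genes), and for Mrpl45, which was lower (1.28% against 1.02%). The most negative difference was that of Mrpl37 (-0.43 ± 0.16, adjusted p = 0.97), whose KO MI values were 88.5, 52.6, 99.8 and 49.6 CPM against 93, 107, 94.2 and 95.9 CPM in WT MI. Mrps18c had the largest positive difference, at 38.3, 35.5, 37.9 and 39.1 CPM in WT MI and 44, 41.4, 41.5 and 56.7 CPM in KO MI (0.29 ± 0.11, adjusted p = 0.97).

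Whether the response to MI differed between genotypes was tested as an interaction term, KO response minus WT response. With edgeR 0 members were called, where 2.74% of all genes were (1.65% higher and 1.1% lower). An unadjusted p under 0.05 was reached by 11 members, all positive, and by 2428 of the 13412 genes tested. DESeq2 called 2 and limma 7. The median was 0.16 and the term was positive for 63 members (80.8% against 50.4% of all genes). With the length and GC correction the median was 0.00 and 40 members were positive. Mrpl52 had the largest term (0.70 ± 0.21, adjusted p = 0.0787), and Mrpl17 was at a smaller term with a smaller spread (0.41 ± 0.12, adjusted p = 0.07). These were the 2 members called by DESeq2, at an adjusted p of 0.0365 for Mrpl52 and 0.0289 for Mrpl17. The edgeR count was 2 without WT sham replicate 1 or WT MI replicate 2, and 1 without WT sham replicate 2. Without KO MI replicate 4 it was 0, with a median of 0.11. Shares of all genes called by DESeq2, by limma and with a library left out were not set beside these counts. The counts from those fits therefore do not set the members apart from other genes.

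The members are short genes, and in the comparisons that use the KO sham libraries the differences ran with transcript length over all genes. The median annotated transcript length was 1224.5 bases for members and 2718 bases for all genes tested. Across the 13392 genes with a length, the difference of KO sham from WT sham correlated with log2 length at Spearman's rho 0.35, and that of KO MI from KO sham at -0.40, as a description over genes of the same libraries. The values were -0.03 for WT MI against WT sham and -0.04 for KO MI against WT MI, which do not use KO sham. Within the 78 members rho with length for KO sham against WT sham and for KO MI against KO sham was 0.08 and -0.13, and for the interaction -0.30. With GC content, rho within members and over all genes was -0.30 and -0.20 in KO sham against WT sham. It was 0.12 and 0.15 in KO MI against KO sham, -0.20 and -0.18 in KO MI against WT MI, and -0.03 and 0.05 in WT MI against WT sham. The 39 shorter members (median 776 bases) had a median of -0.16 in KO sham against WT sham with 7 called, and the 39 longer ones (median 2080 bases) -0.15 with 5 called. When each library's dependence on length and GC content was fitted and removed, the members' median went from -0.16 to -0.05 in KO sham against WT sham and from 0.12 to -0.04 in KO MI against KO sham. The lean of the members in 1 direction was thus mostly lost, and 29 and 35 of the 78 were then above 0. The calls became 2 higher (Mrpl14 and Mrps23) and 9 lower in the former comparison and 4 higher and 8 lower in the latter. Of all genes 15.3% and 16.4% were then called in either direction.

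Some members kept their calls under that correction. In KO sham against WT sham these were 4 of 12, Mrpl52 at -0.35 (adjusted p = 0.0233), Mrps16 at -0.38 (adjusted p = 0.0128), Mrpl45 at -0.32 (adjusted p = 0.0329) and Mrpl11 at -0.21 (adjusted p = 0.0426). In KO MI against KO sham they were 3 of 8, Mrps16 at 0.33 (adjusted p = 0.0264), Mrpl17 at 0.39 (adjusted p = 0.00846) and Mrps25 at 0.49 (adjusted p = 0.00973). Mrps16 was thus called in both comparisons with and without the correction. With a library left out and no correction, Mrps16 kept its call in 4 of 8 fits in KO sham against WT sham. In KO MI against KO sham Mrps16 kept its call in 5 of 8. In the former comparison Mrpl52 kept its call in 8 of 8, Mrpl11 in 4 and Mrpl45 in 3. In the latter Mrpl17 kept its call in 4 of 8 and Mrps25 in 0. Mrpl34, the steadiest member when libraries were left out, was at -0.12 (adjusted p = 0.304) and 0.08 (adjusted p = 0.519) with the correction. For the interaction Mrpl17 was called (0.49, adjusted p = 0.0446). Keeping a call went partly with length. Mrps16, Mrpl45, Mrpl11, Mrpl17 and Mrps25, at 2572, 2431, 1929, 4164 and 6073 bases, were longer than the members' median of 1224.5 bases. Mrpl52, at 440.5 bases, was shorter and kept its call, while Mrps7 and Mrps9, at 1962 and 1418 bases, were longer and lost theirs. A kept call is therefore not a check that is independent of length.

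**Figure D4:**
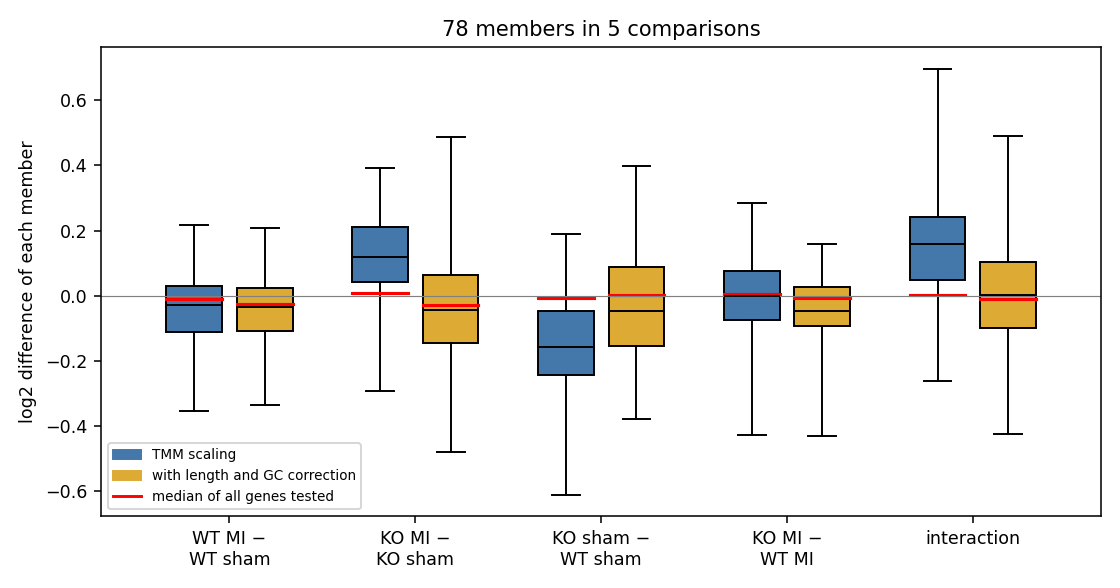
Log2 differences of the 78 members in 5 comparisons with TMM scaling alone (blue) and with a length and GC correction (yellow); boxes give the quartiles and median, whiskers the full range, red lines the median of all genes tested. In KO sham minus WT sham the members' median moves from -0.16 to -0.05 and in KO MI minus KO sham from 0.12 to -0.04.

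Genes that work with the mitochondrial ribosome were counted beside the members. Of 5 ribosome proteins under other names, such as Dap3, the GTP-binding protein of the small subunit, 1 was called lower in KO sham against WT sham and 0 higher (median -0.16). This was Chchd1, a small-subunit protein, at 49, 56.7, 62.4 and 64.4 CPM in WT sham and 49.1, 46, 48.8 and 43.9 CPM in KO sham (-0.31 ± 0.10, adjusted p = 0.0398). With the length and GC correction its call was lost (-0.16, adjusted p = 0.181), and the list's median was -0.03. Of 29 assembly factors 0 were called in that comparison (median -0.04). In KO MI against KO sham 1 assembly factor was called lower, Grsf1, a protein of mitochondrial RNA granules, from 190.0, 177, 189 and 198 CPM to 147, 155, 147 and 167 CPM (-0.29 ± 0.07, adjusted p = 0.00996). The assembly factors' median there was 0.03. With the correction Grsf1 was 1 of 5 assembly factors called lower after MI, at -0.33 (adjusted p = 0.00106), and the median was -0.08. In KO sham against WT sham 3 assembly factors were then called higher and 1 lower (median 0.08).

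Among 14 tested translation factors, Tufm, which delivers charged tRNA to the ribosome, was the 1 called lower in KO sham, from 265, 317, 314 and 312 CPM to 258, 239, 259 and 229 CPM (-0.29 ± 0.09, adjusted p = 0.036). The list's median was 0.04, of the opposite sign. With the length and GC correction Tufm was not called (-0.15, adjusted p = 0.145), and 1 translation factor was called higher. After MI in KO mice Gfm1, the translocation factor, was the 1 called lower (-0.24 ± 0.07, adjusted p = 0.0229), and this call too was lost with the correction (-0.16, adjusted p = 0.121). Of 17 mitochondrial tRNA synthetases, Mars2, which charges methionine tRNA, was called higher in KO sham (0.48 ± 0.14, adjusted p = 0.0216) and Ears2, which charges glutamate tRNA, lower (-0.44 ± 0.13, adjusted p = 0.0261). The correction left Ears2 called (-0.33, adjusted p = 0.0443) but not Mars2 (0.16, adjusted p = 0.443). Of 16 genes of mitochondrial DNA copying and transcription, 1 was called higher and 1 lower in KO sham. Tfb2m, an initiation factor of the mitochondrial RNA polymerase, was higher (0.45 ± 0.12, adjusted p = 0.0147), and Slirp, which stabilises mitochondrial messengers, was lower (-0.45 ± 0.12, adjusted p = 0.0173). Both were also called with the correction, Tfb2m at 0.40 (adjusted p = 0.00515) and Slirp at -0.42 (adjusted p = 0.0386).

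Regulators of mitochondrial genes and the products of mitochondrial translation were counted in the same way. Of 11 regulators of nuclear genes for mitochondria, Ppargc1b, a coactivator, was the 1 called in KO sham and was higher (0.48 ± 0.11, adjusted p = 0.00634), opposite in sign to the members. After MI in KO mice it was 1 of 2 regulators called lower and fell from 54, 58.3, 62.5 and 64.8 CPM to 34.3, 35.6, 31.8 and 31.5 CPM (-0.85 ± 0.11, adjusted p = 0.00014). Its relative Ppargc1a fell after MI in WT mice (-1.07 ± 0.20, adjusted p = 0.01), a comparison in which no member was called. The calls of both coactivators were also made with the length and GC correction. Of 13 messages that the mitochondrial ribosome translates, mt-Nd3 and mt-Nd5 were called higher in KO sham, mt-Nd3 at 4.50, 8.18, 6.39 and 7.15 CPM in WT sham and 34.5, 37.9, 29.4 and 43.6 CPM in KO sham. The mt-Nd3 level stayed at 43, 39.8, 30.4 and 39.6 CPM in KO MI, with 2.51 ± 0.17 against WT MI (adjusted p = 3.14e-08). It was thus called between the genotypes after either surgery, which held for 0 members, and this was also so with the correction. Of 30 nuclear respiratory chain subunits, 0 were called higher and 1 lower in KO sham (median -0.07). There 25 of the 30 were below 0, and in the interaction 25 were above 0 (median 0.12). A lean of the signs in these 2 comparisons was thus not particular to the members. After MI in KO mice 11 subunits were above 0 and 19 below (median -0.01). Of them 0 were called higher and 2 lower, Ndufs1 (-0.39 ± 0.08, adjusted p = 0.00385) and Sdha (-0.26 ± 0.07, adjusted p = 0.0223). With the correction 14 of the 30 subunits were called lower and 0 higher in KO MI against KO sham (median -0.22, 1 subunit above 0), and in KO sham against WT sham 0 were called, with a median of 0.05. These subunits join the proteins made on mitochondrial ribosomes in the respiratory complexes or, for Sdha, Sdhb, Sdhc and Sdhd, act beside them.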

How the data were processed

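Poly(A) RNA of 16 mouse ventricle samples was sequenced. The authors deposited 1 table of whole-number read counts per Ensembl gene, with 5 lines of reads assigned to no gene, which were left out of library sizes. The submitters' processing notes name bcl2fastq 2.17, cutadapt 3.4, FastQC, HISAT2 2.2.1, HTSeq 0.13.5, DESeq2 and the build GRCm39; strand settings are not given in the sources used here. Reads in no annotated feature were 23.7 to 28.2% and ambiguous reads 1.56 to 2.08% of each library, so genes that overlap lose reads.

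Groups and replicate numbers came from the labels. Counts were tested in 1 model over the 4 groups with edgeR 4.0.16 in R 4.3.3 (TMM scaling, its filter on low counts, quasi-likelihood F test, 12 residual degrees of freedom). Adjusted p-values are Benjamini-Hochberg values over the 13412 genes tested in each of 5 comparisons, and a gene is called at an adjusted p under 0.05. CPM values use TMM-scaled library sizes. The count pipeline was run on simulated counts as a check of the code, which does not measure its error rate on these data. Alternatives were DESeq2 1.42.0, limma 3.58.1 with voom and sample weights, other scalings and filters, a replicate block, a per-library correction for transcript length and GC content (mgcv 1.9.3), and each library left out. Symbols, lengths and GC content came from GENCODE M21, and 22362 of 22468 genes matched.

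Members and lists were chosen with earlier results of these data known. Of 194 listed symbols 191 were found. Members described in full were the 6 with the smallest adjusted p called in each comparison, the extremes of each comparison and of each class, and the Mrps18 paralogs and Mrps36. The remaining called members, and Mrpl12, Mrpl44 and Mrps11, were named after their values were seen. From each companion list the gene or genes with the smallest p were named, and other called genes after their values were seen.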

Additional observations from a re-analysis of the deposited data

Results flagged for a closer look

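Of 160 sets of 4 replicates of the named genes, 17 (10.6%) held a library far from the other 3 by Dixon's 95% criterion, where chance gives about 1 in 20. KO MI replicate 4, whose marker levels stood apart, accounted for 6 of them. In it Mrpl52 was at 53.4 CPM (others 47.5 to 48.4), Mrpl54 at 69.7 CPM (54.7 to 56.2) and Mrpl50 at 38.2 CPM (28.6 to 29.9). Chchd1 was also high there, at 60.8 CPM (49.3 to 51.1), as was Ppargc1a, at 92.2 CPM (44.7 to 51.1), while Dap3 was low, at 76.2 CPM (85.3 to 87.1).

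In WT MI replicate 2, Mrpl19 was high at 38.7 CPM (27.9 to 29.4) and Mrps18b at 33.1 CPM (24.1 to 25.3), and Slirp was low at 35.1 CPM (40.7 to 40.9). In WT sham replicate 1, Mrps6 was high at 11.6 CPM (9.76 to 9.82), and Ears2 was low at 18.2 CPM (24.2 to 25.4) and Tufm at 265 CPM (312 to 317). Dap3 was high in WT sham replicate 2, at 100.2 CPM (81.4 to 83.4). Sdha was high in WT sham replicate 3, at 1826 CPM (1743 to 1756), and low in WT MI replicate 1, at 1514 CPM (1642 to 1652). In WT MI replicate 1, mt-Nd5 was low at 8087 CPM (10663 to 10915), and in WT MI replicate 3, Ppargc1b was high at 42.1 CPM (32.9 to 34.3).

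The response to MI differed between genotypes for mt-Nd5, a mitochondrially encoded subunit of complex I, by the interaction term (-0.86 ± 0.19 on the log2 scale, adjusted p = 0.0189).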

How the results depend on the processing

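Each of the 20 calls of members in the comparisons that use KO sham kept its sign under each of the 20 alternatives run. Members called in KO sham against WT sham numbered 12 with edgeR, 33 with limma, and 7 without the 3 libraries low in Y-linked reads. Of all genes 15.3, 29.1 and 9.19% were called in these fits. With 1 library left out the member count ran from 4 to 20, and the share of all genes from 9.59 to 15.4%. In KO MI against KO sham the count was 8, against 23 with limma (20 higher, 3 lower), 13 when only those groups were fitted, and 4 without the 3 libraries. Of all genes 16.6, 35.8, 18.9 and 9.59% were called in these fits. With 1 library left out the member count ran from 1 to 8, and the share of all genes from 9.1 to 21.7%. For the interaction it was 0, against 2 with DESeq2, 7 with limma and 1 (Mrpl17) without the 3 libraries. It was also 1 (Mrpl17) with the length and GC correction, with or without the replicate block. With 1 library left out the interaction count ran from 0 to 2. Shares of all genes called in these other fits of the interaction were not set beside the counts. With the length and GC correction the medians of members became -0.047 in KO sham against WT sham, -0.042 in KO MI against KO sham and 0.0013 for the interaction, and with the replicate block added -0.045, -0.043 and 0.0013; the cause was not tested. With 1 library left out these medians ran from -0.192 to -0.134, from 0.067 to 0.142 and from 0.112 to 0.195. In WT MI against WT sham and KO MI against WT MI 0 members were called under every alternative run.

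Same-numbered samples correlated at -0.097 to 0.475 in their deviations from group means, highest for WT sham and WT MI replicates 2. The labels do not say whether the numbers pair samples, and these correlations cannot decide it. A replicate block alone gave 11 and 7 calls in KO sham against WT sham and in KO MI against KO sham, where 16.4 and 18% of all genes were called. With a library left out, Mrps25 lost its call in 8 of 8 fits and Mrps7, Mrps9 and Mrps17 in 7 of 8.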

Other observations

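Mrpl37, a large-subunit protein with no bacterial counterpart, separated the KO MI libraries from each other. It read 88.5 and 99.8 CPM in KO MI replicates 1 and 3 and 52.6 and 49.6 CPM in replicates 2 and 4, while the 12 libraries of the other groups read 85.8 to 111 CPM. Its group difference did not pass the test (-0.29 ± 0.16 on the log2 scale against KO sham, adjusted p = 0.226), but it was called lower without KO MI replicate 3 (-0.48 ± 0.14, adjusted p = 0.038) and with the length and GC correction (-0.48, adjusted p = 0.0441). Genes beside it on chromosome 4 showed no such split. In KO MI replicates 1 to 4, Ssbp3 read 37.3, 35.1, 37.1 and 30.3 CPM, Cyb5rl 5.69, 5.75, 6.30 and 7.03 CPM, and Tceanc2 between 9.93 and 11 CPM. Mrpl37 and its neighbours were looked at after the values were seen.

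Members were not spread evenly over the replicates of a group. KO MI replicate 4 held the highest KO MI value for 50 of the 78 members, and WT MI replicate 2 the highest WT MI value for 51. KO sham replicate 4 held the lowest KO sham value for 42, and WT sham replicate 1 the lowest WT sham value for 39. No such counts over all genes were set beside these, so they do not set the members apart from other genes.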
